A study of Mus musculus with 13 samples.

Results

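The genes of the beta-catenin destruction complex, with its substrate and the transcription factor that this substrate works with, were followed across intestinal adenomas and normal epithelium of the mouse. The 10 genes were Apc, Apc2, Axin1, Gsk3a, Gsk3b, Ctnnb1, Csnk1a1, Amer1, Btrc and Tcf7l2, taken as the probe sets that carry exactly 1 gene symbol equal to one of these names. Each gene had 1 such probe set, so that 10 of the 35556 probe sets on the array, and 10 of 19938 gene symbols that single-symbol probe sets carry, were used and no choice between probe sets of a gene arose. All samples came from the small intestine of Apc mutant mice crossed with transgenic mice expressing FPs, a term the labels do not spell out. There were 3 arrays of adenomas, 4 of normal epithelium with high FP expression (FP-high) and 6 of normal epithelium with low FP expression (FP-low), the normal samples lying next to adenomas. Every group, normal epithelium included, therefore carries an Apc mutation and FP transgenes. The labels name neither the Apc allele nor the promoter of the transgene, they give no ages, and which arrays stem from one animal is not stated. The p-values therefore describe only how far these arrays scatter, part of which may be technical. Since the allele is not named, the Apc level is no check of the labels.

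In cells without a Wnt signal, the scaffold proteins APC and AXIN1 hold beta-catenin, the product of Ctnnb1, beside its kinases. Casein kinase 1 alpha (Csnk1a1) adds the priming phosphate, GSK3A and GSK3B add further ones, and BTRC, the substrate arm of a ubiquitin ligase, then marks beta-catenin for the proteasome. AMER1 binds APC and brings it to the membrane, APC2 is a relative of APC known mostly from neurons, and TCF7L2 is the factor through which beta-catenin drives the proliferative programme of intestinal crypts. Much of this control acts on proteins, which arrays of RNA do not measure.

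Values are the deposited log2 levels of RNA, in which 1 unit is a doubling, and since probe sets differ in brightness, a level says nothing of which of 2 genes has more RNA. Differences are those of group means with limma's standard error, 95% intervals are limma's and not adjusted for multiple testing, and a call is an adjusted p under 0.05 over the 23410 probe sets with a gene symbol. Epithelial markers were looked at beside the labelled tissue, with no array of another tissue for reference. The mean level of the 12 markers was 8.03 to 8.70 in adenomas, 6.24 to 8.84 in FP-high samples and 7.99 to 8.76 in FP-low samples. FP-high replicate 1, the array at 6.24, stood apart. Its log2 values had an SD of 1.21, against 1.89 to 2.10 in the other 12 arrays, and, regressed on the average of the remaining normal arrays, its values had a slope of 0.48, against 0.98 to 1.12, so that bright probe sets read low in it. Each of the 10 genes is given with and without this array where FP-high samples enter.

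None of the 10 genes passed the test in any comparison. The most that single genes showed was a lower Gsk3b mean in FP-high samples and a higher Ctnnb1 mean in adenomas, neither of them called. The plot of levels by group shows every value.

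**Figure D1:**
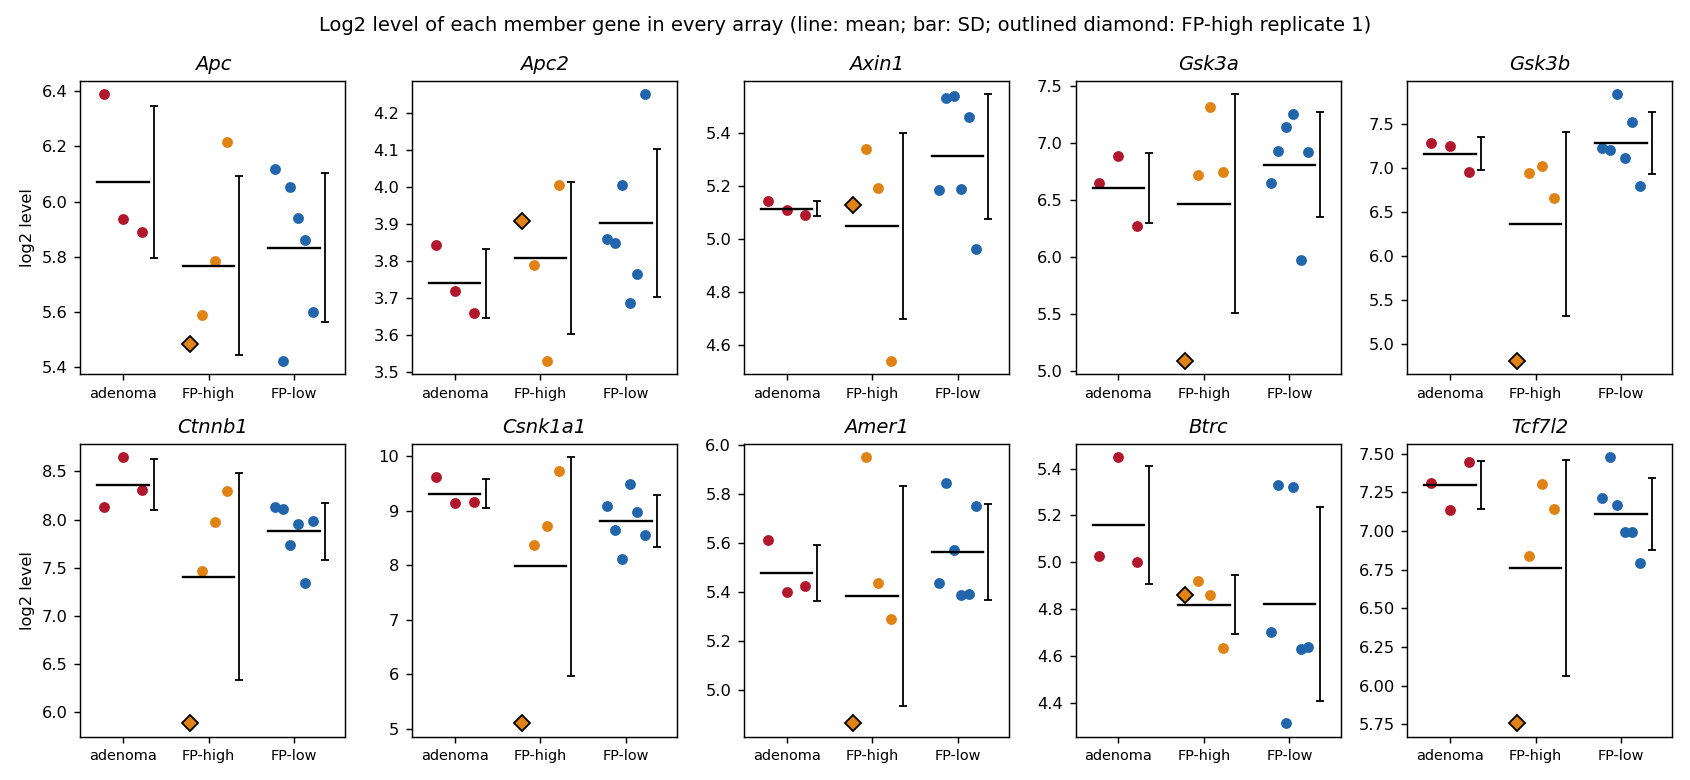
Log2 level (vertical axis) of the 10 genes in each of the 13 arrays, by group. Points are arrays, lines are group means, bars are SDs and the outlined diamond is FP-high replicate 1, which lies at 5.10 in Csnk1a1 against 8.11 to 9.72 in the other 12 arrays.

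Among the scaffolds, Apc was at 6.39, 5.94 and 5.89 in adenomas. It was at 5.48, 5.59, 5.79 and 6.22 in FP-high samples, and in FP-low samples its lowest, median and highest values were 5.42, 5.90 and 6.12. The 3 ranges overlapped, and the highest value was that of adenoma replicate 1. Normal epithelium is taken as the midpoint of both normal group means. Adenomas differed from it by 0.27 ± 0.19 (SE; limma, adjusted p = 0.606), with an interval of -0.15 to 0.69. A fall of Apc RNA by 1 log2 unit in adenomas lay outside that interval, as it did for the other 9 genes in the same comparison. Without FP-high replicate 1 the Apc difference was 0.22 ± 0.18. FP-high samples differed from FP-low samples by -0.065 ± 0.19 (limma, adjusted p = 0.861; interval -0.47 to 0.34), or by 0.031 ± 0.19 without replicate 1.

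Axin1, the scaffold that assembles the complex, was at 5.14, 5.11 and 5.09 in adenomas, an SD of 0.027. It was at 5.13, 5.34, 5.19 and 4.54 in FP-high samples, and FP-low samples ran from 4.96 through a median of 5.32 to 5.54. The adenomas fell inside both normal ranges. The difference was -0.066 ± 0.18 between adenomas and normal epithelium (adjusted p = 0.872) and -0.26 ± 0.17 between FP-high and FP-low samples (limma, adjusted p = 0.448). Leaving out FP-high replicate 1 gave -0.053 ± 0.17 for adenomas against normal epithelium and -0.29 ± 0.18 for FP-high against FP-low samples, so that Axin1 depended little on that array. Its paralogue Axin2, a feedback target of the pathway that was looked up after its values had been seen, differed by -0.033 ± 0.34 between adenomas and normal epithelium with all arrays and by -0.24 ± 0.21 without FP-high replicate 1, neither of them called. Axin2 was at 4.39 in that array, against 5.67 to 6.66 in the other 12.

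Apc2 was the only one of the 10 genes whose mean level lay under the median of the tested probe sets. It was at 3.84, 3.72 and 3.66 in adenomas, 3.91, 3.79, 3.53 and 4.01 in FP-high samples, and 3.69, 3.85 and 4.25 as lowest, median and highest of the FP-low samples. Its groups overlapped, with differences of -0.12 ± 0.14 for adenomas against normal epithelium and -0.094 ± 0.14 for FP-high against FP-low samples. Without FP-high replicate 1 they were -0.099 ± 0.14 and -0.13 ± 0.14, in the same order. Markers of enteric neurons and glia, cells in which Apc2 is best known, had mean levels of 3.94 to 4.09 in adenomas, 3.97 to 4.22 in FP-high and 3.86 to 4.12 in FP-low samples, and none of the 9 measured was called. The level of Apc minus that of Apc2 within each array, which removes a shared offset but not a shared change of scale and says nothing of which gene has more RNA, was 2.22 to 2.55 in adenomas and 1.35 to 2.26 in normal samples. That shift of 0.39 did not pass an exact two-sided permutation test (p = 0.115, adjusted p = 0.231 over 4 such tests), and without FP-high replicate 1 it was 0.35 (p = 0.141).

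Amer1, an X-linked gene, was at 5.61, 5.40 and 5.42 in adenomas and at 4.86, 5.95, 5.44 and 5.29 in FP-high samples. FP-low samples had a lowest value of 5.39, a median of 5.50 and a highest of 5.84. The groups overlapped throughout, and adenomas differed from normal epithelium by 0.0042 ± 0.19 (limma, adjusted p = 0.994), or -0.083 ± 0.15 without FP-high replicate 1. FP-high samples differed from FP-low samples by -0.18 ± 0.19 with all arrays and by -0.0043 ± 0.16 without replicate 1. Xist, the RNA that silences an X chromosome in female cells, was at 8.88 to 9.71 in the 3 adenomas. FP-high replicate 4 (8.64) and FP-low replicate 6 (8.74) were also high, and the other 8 normal arrays were at 3.61 or lower. With the Xist level as a covariate the Amer1 difference was -0.025 ± 0.29.

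**Figure D2:**
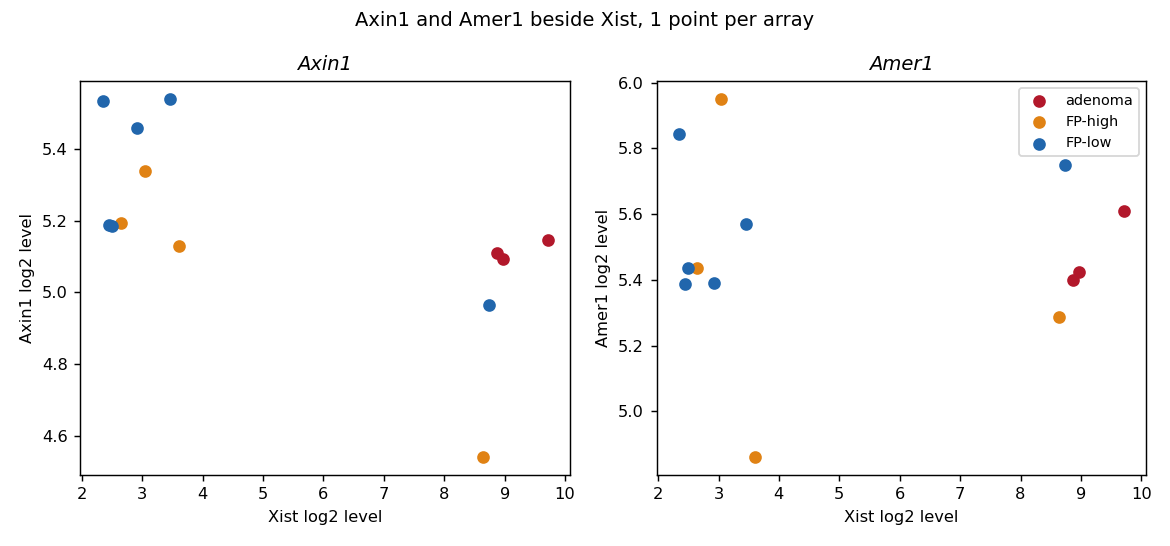
Log2 level of Axin1 (left) and Amer1 (right) on the vertical axis against the Xist log2 level, 1 point per array, coloured by group. The 3 adenomas, FP-high replicate 4 and FP-low replicate 6 form the cluster with Xist above 8.6, and Amer1 spans 5.29 to 5.75 in it.

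Of the kinases, Gsk3b had the largest shift with FP. It was at 4.81, 6.94, 7.03 and 6.66 in FP-high samples, against a lowest value of 6.80, a median of 7.22 and a highest of 7.84 in FP-low samples. Replicate 1 was far below the rest, and replicates 2 and 3 fell inside the FP-low range. The difference was -0.93 ± 0.37 (limma, adjusted p = 0.388), and Gsk3b was the single gene of the 10 with an unadjusted p under 0.05. Over all tested probe sets 12.7% met that bound, so 1 of 10 was close to the background. With FP-high replicate 1 left out the difference was -0.41 ± 0.20 (adjusted p = 0.599) and none of the 10 had an unadjusted p under 0.05, against 8.53% of all. In adenomas Gsk3b was at 7.29, 7.25 and 6.96, all inside the FP-low range, with a difference of 0.34 ± 0.38 from normal epithelium, or 0.084 ± 0.19 without FP-high replicate 1.

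Gsk3a, the other GSK3 gene, was at 6.65, 6.89 and 6.28 in adenomas and at 5.09, 6.72, 7.32 and 6.74 in FP-high samples. FP-low samples had 5.97, 6.93 and 7.26 as lowest, median and highest. FP-high differed from FP-low by -0.34 ± 0.37 with all arrays and by 0.11 ± 0.26 without replicate 1, so its sign hung on that array. Adenomas differed from normal epithelium by -0.034 ± 0.38 with it and by -0.26 ± 0.25 without it, neither of them called. The level of Gsk3b minus that of Gsk3a was -0.28, 0.23, -0.29 and -0.082 in FP-high samples, against -0.15 to 1.55 in FP-low samples. This shift of -0.58 did not pass the exact two-sided permutation test (p = 0.105, adjusted p = 0.231 over 4 tests), and without replicate 1 it was -0.52 (p = 0.250).

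Csnk1a1 was at 9.62, 9.15 and 9.16 in adenomas, which lay among the higher arrays but inside the normal range. FP-high samples were at 5.10, 8.37, 8.72 and 9.72, and FP-low samples had a lowest value of 8.11, a median of 8.81 and a highest of 9.48. Replicate 1 of the FP-high group lay 3.84 below the mean of the other 3, the widest such gap of the 10 genes. The difference between FP-high and FP-low samples was -0.83 ± 0.67 with it and 0.13 ± 0.32 without it, and neither was called. Adenomas stood 0.92 ± 0.68 from normal epithelium with it (limma, adjusted p = 0.618) and 0.44 ± 0.31 without it (adjusted p = 0.493).

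Ctnnb1, which encodes beta-catenin, was at 8.13, 8.65 and 8.30 in adenomas. It was at 5.88, 7.47, 7.98 and 8.30 in FP-high samples, and FP-low samples ran from 7.34 through a median of 7.97 to 8.13. Adenoma replicate 2 lay above every normal array, replicate 3 was level with the highest of them, FP-high replicate 4, and replicate 1 was level with the top FP-low array. The difference between adenomas and normal epithelium was 0.72 ± 0.38 (limma, adjusted p = 0.525; interval -0.11 to 1.55). It was 0.46 ± 0.20 without FP-high replicate 1 (adjusted p = 0.278), the 1 of 10 genes with an unadjusted p under 0.05 where 17% of all tested probe sets had one. With array weights it was 0.57 ± 0.19 (adjusted p = 0.097), also short of a call. Between FP-high and FP-low samples the difference was -0.47 ± 0.37 with all arrays and 0.037 ± 0.21 without replicate 1.

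Btrc, the ligase arm, was at 5.03, 5.45 and 5.002 in adenomas and at 4.86, 4.92, 4.86 and 4.64 in FP-high samples. FP-low samples had 4.31, 4.67 and 5.33 as lowest, median and highest. The adenomas lay above all 4 FP-high arrays but not above the FP-low ones. This was the only one of the 10 genes whose adenoma and FP-high values did not overlap, while 17.1% of all tested probe sets showed such a gap. The difference between adenomas and FP-high samples was 0.34 ± 0.24 (limma, adjusted p = 0.435), and between FP-high and FP-low samples it was -0.0022 ± 0.20. Without FP-high replicate 1 these were 0.35 ± 0.26 and -0.016 ± 0.22. Adenomas differed from normal epithelium by 0.34 ± 0.21 with and without that array (adjusted p = 0.568 and 0.434).

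Tcf7l2, the nuclear partner, was at 7.31, 7.14 and 7.45 in adenomas and at 5.76, 6.84, 7.30 and 7.15 in FP-high samples. FP-low samples had a lowest value of 6.80, a median of 7.08 and a highest of 7.48. The adenomas fell inside the FP-low range, and apart from replicate 1 so did the FP-high samples. Adenomas differed from normal epithelium by 0.36 ± 0.26 (adjusted p = 0.611), or 0.20 ± 0.15 without FP-high replicate 1, and FP-high from FP-low samples by -0.35 ± 0.26, or -0.014 ± 0.16 without replicate 1.

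**Figure D3:**
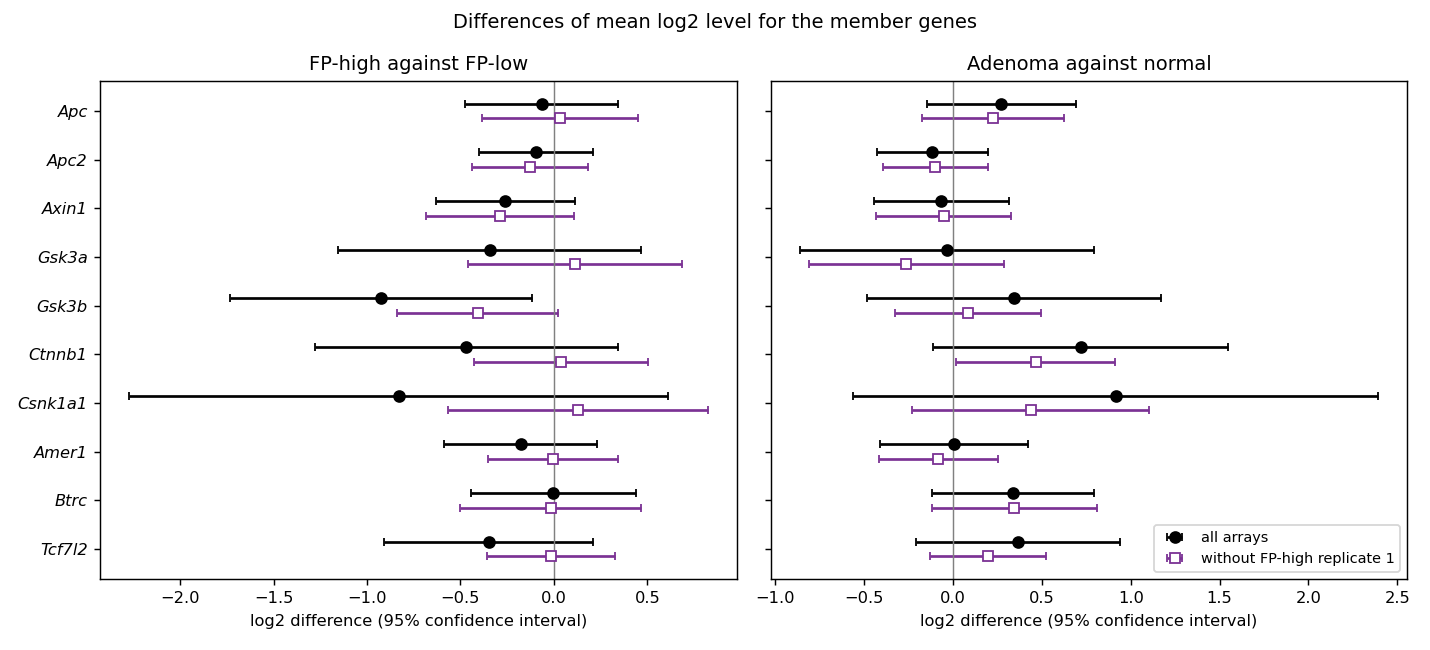
Differences of mean log2 level (horizontal axis) with 95% intervals for FP-high against FP-low samples (left) and adenomas against normal epithelium (right), for all arrays (filled) and without FP-high replicate 1 (open). On the left the Csnk1a1 difference is -0.83 with that array and 0.13 without it.

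Over the 10 genes, FP-high means were lower than FP-low means in 10 of 10, with a median difference of -0.30, whereas 43.7% of all tested probe sets were lower and their median was 0.053. Among probe sets with a mean level at or above the median, which hold 9 of the 10 genes, the median was -0.23. Once FP-high replicate 1 was left out the means were lower in 6 of 10 genes with a median of -0.0090, against 45.4% of all with a median of 0.021. After quantile normalization 8 of 10 were lower, and with array weights 7 of 10. None of the 10 was called with or without that array, against 0% of all probe sets either way, and in none did the FP-high and FP-low groups separate, against 2.25% of all. When it was left out all 10 intervals lay within 1 log2 unit of 0, and with it 6 did.

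Between adenomas and normal epithelium 7 of 10 genes had a higher mean in adenomas, with a median of 0.30, against 38.1% of all tested probe sets and a median of -0.091. Among probe sets with a mean level at or above the median, which hold 9 of the 10 genes, the median was 0.051. The test called 0 of the 10, against 0.91% of all, with adjusted p from 0.525 to 0.994, and 0 of the 10 had an unadjusted p under 0.05, against 10.6% of all. None of the 10 had adenomas all above or all below the normal arrays, against 3.97% of all. Leaving out FP-high replicate 1 made the count with a higher mean 6, against 37% of all, and the median 0.14, with 0 called against 2.08% of all. Against FP-low samples alone, 5 genes had a higher mean in adenomas and 5 a lower one (median 0.052), where 39% of all were higher. The median of the brighter probe sets was -0.062 in this comparison. There 0 were called, against 0.551% of all, 0 had an unadjusted p under 0.05, against 7.45%, and 0 had groups that did not overlap, against 9.31%. Against FP-high samples alone, 9 had a higher mean (median 0.32), against 40.4% of all, or 7 without replicate 1 (median 0.21), against 37.5%. With all arrays the median of the brighter probe sets was 0.19 in this comparison, against -0.11 for all tested probe sets. There 0 were called, against 0.765% of all, and 0 had an unadjusted p under 0.05, against 15.7%. These comparisons share the adenoma arrays. Fewer cells of a type and less RNA per cell cannot be told apart in such samples.

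Elsewhere in the pathway single genes did pass between adenomas and normal epithelium. Of 27 measured Wnt feedback and target genes 4 rose in adenomas and 0 fell, with a list median of 0.27. Of all tested probe sets 0.884% rose and 0.0256% fell. The lists were chosen with earlier results of these data known, so the contrast with that share is a description only. The transcription factor Prox1 rose by 3.11 ± 0.44 (limma, adjusted p = 0.0040), the feedback inhibitor Nkd1 by 2.08 ± 0.38 (adjusted p = 0.022), the hyaluronan receptor Cd44 by 1.94 ± 0.35 (adjusted p = 0.019) and the R-spondin receptor Lgr5 by 1.62 ± 0.33 (adjusted p = 0.042). In each of these 4 genes the lowest adenoma exceeded the highest of the 10 normal arrays. Against FP-low samples alone, Prox1 (3.18, limma, adjusted p = 0.0065) and Nkd1 (2.04, adjusted p = 0.045) were called. That call of Nkd1 ended in 11 cases when 1 array at a time was left out. Cd44 (1.40, limma, adjusted p = 0.174) and Lgr5 (1.24, adjusted p = 0.240) were not called against FP-low samples. Nkd1 was at 8.14, 6.89 and 5.47 in adenomas, against 4.55 to 5.02 in FP-high and 4.61 to 5.13 in FP-low samples. Lgr5 is the 1 gene that passed of 21 measured Wnt and R-spondin receptors and transducers, whose median was -0.058, and it stands in both lists.

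Among 31 further genes of the complex and of beta-catenin turnover, 1 fell in adenomas and 0 rose, with a median of 0.19. It was Frat2, whose product binds GSK3 and keeps it from Axin. It was at 4.80, 4.94 and 5.74 in adenomas, against 6.37, 6.77, 5.95 and 6.36 in FP-high samples and 5.66, 6.32 and 6.53 as lowest, median and highest in FP-low samples. All adenomas lay below the FP-high samples, and adenoma replicate 3 overlapped 1 FP-low array. Frat2 fell by 1.15 on the log2 scale (SE 0.23; limma, adjusted p = 0.039). It was not called against FP-low samples alone (-1.09, limma, adjusted p = 0.097) or FP-high samples alone (-1.20, adjusted p = 0.065). The call against normal epithelium ended without adenoma replicate 1 (adjusted p = 0.298) or 2 (0.249), and without 7 of the normal arrays (0.062 to 0.070). Lgr5 lost its call without any 1 adenoma (0.068 to 0.298) and without 7 of the normal arrays (0.053 to 0.071), Cd44 without any 1 adenoma (0.076 to 0.111), and Nkd1 without adenoma replicate 1 (0.077) or 2 (0.132). Prox1 stayed called without any 1 array. After quantile normalization Lgr5 (1.49; limma, adjusted p = 0.088) and Frat2 (-1.36, adjusted p = 0.082) were not called, while Prox1, Cd44 and Nkd1 were. With probe sets without a symbol included, Lgr5 (adjusted p = 0.057) and Frat2 (0.055) again fell short.

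The replicate number was also tried as a block. Adenoma and FP-high arrays of the same number deviated together weakly (r = 0.102 to 0.233), which does not show that they share an animal. With the block, Lgr5 and Nkd1 lost their calls against FP-high samples while their differences were no smaller. Lgr5 was at 2.11 with the block and 2.004 without it (limma, adjusted p = 0.108 and 0.033), and Nkd1 at 2.17 and 2.12 (adjusted p = 0.209 and 0.046). Cd44 (adjusted p = 0.026) and Prox1 (adjusted p = 0.048) kept theirs. The calls against FP-high samples were fragile without a block too. Leaving out 1 array at a time ended that of Nkd1 in 12 cases, Lgr5 in 6, Cd44 in 2 and Prox1 in 1. After quantile normalization Lgr5 (limma, adjusted p = 0.072) and Nkd1 (0.060) were not called. In a fit of only the adenoma and FP-high arrays none of these genes was called (limma, adjusted p = 0.101 to 0.355). The block fit also covers FP-low arrays, which did not deviate together with adenomas of the same number (r = -0.12, 0.061 and -0.062). The block therefore has no such ground in the comparison with normal epithelium. There it ended the calls of Lgr5 (1.87; limma, adjusted p = 0.118), Nkd1 (2.13, adjusted p = 0.169) and Frat2 (-1.08, adjusted p = 0.354), and Cd44 and Prox1 kept theirs. With the Xist level as a covariate none of these 5 genes was called (adjusted p = 0.212 to 0.754). The differences were then 2.89 for Prox1, 1.73 for Nkd1, 1.51 for Cd44, 1.01 for Lgr5 and -1.11 for Frat2, with larger standard errors. Since all adenomas and only 2 normal arrays are high in Xist, that level and the adenoma state largely coincide. The Y-linked gene Eif2s3y was at 2.01 to 2.22 in adenomas, 2.25 in FP-high replicate 4 and 2.07 in FP-low replicate 6. In the other normal arrays it was at 4.43 or higher. By these 2 sex markers, sex and the adenoma state largely coincide as well, and the part of sex was not tested. Among markers of other cells 2 were called in adenomas with all arrays. The fibroblast gene Dcn rose by 2.36 ± 0.45 (limma, adjusted p = 0.028) and was at 7.62, 6.14 and 4.41 in adenomas. Nkd1 and Prox1 had that order of arrays, while Lgr5 (8.42, 7.02 and 7.10) and Cd44 (7.56, 7.33 and 7.80) did not. The leukocyte gene Ptprc rose by 0.79 ± 0.16 (limma, adjusted p = 0.039). Of 13 fibroblast and smooth muscle markers only Dcn was called (mean level 4.37 to 4.89 in adenomas, 4.38 to 4.66 in FP-high and 4.28 to 4.64 in FP-low samples). Of 11 leukocyte markers only Ptprc was called (mean level 4.13 to 4.39 in adenomas, 4.40 to 4.96 in FP-high and 4.23 to 4.63 in FP-low samples). By mean, 7 of those 13 and 7 of those 11 were lower in adenomas, with medians of -0.044 and -0.12. Of all tested probe sets 61.9% were lower, with a median of -0.091, so these counts set neither list apart. Without FP-high replicate 1, the test called 1 leukocyte marker higher and 1 lower in adenomas. It called higher 1 fibroblast and smooth muscle marker, 2 of 8 endothelial markers and 1 of 12 epithelial markers. Of all tested probe sets 1.47% were then called higher and 0.615% lower. With all arrays 0 endothelial and 0 epithelial markers were called. The part of these cells in the results was not tested.

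No gene passed among 21 Wnt ligands and secretion factors (median -0.22; 19 lower by mean) or 23 partners of beta-catenin in the nucleus and at junctions (median 0.12; 14 higher by mean). Without FP-high replicate 1 the median of the partners was -0.062, with 10 higher by mean, so its sign hung on that array. In the same setting the medians were -0.20 for ligands, -0.14 for receptors and transducers, 0.10 for further complex and turnover genes and 0.23 for feedback and target genes. The smallest p-value in each list belonged to Wnt7a, a ligand, at -0.59 ± 0.26 (limma, adjusted p = 0.435), or -0.44 without FP-high replicate 1, and Pygo1, a beta-catenin coactivator, at -0.52 ± 0.17 (adjusted p = 0.280), or -0.43 without it.

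Between FP-high and FP-low samples 0 genes of all 5 lists were called, against 0% of all probe sets. The medians were -0.38 for further complex and turnover genes, -0.22 for partners of beta-catenin, -0.12 for receptors and transducers, -0.073 for feedback and target genes and 0.14 for ligands. Without FP-high replicate 1 they were -0.032, 0.022, 0.042, -0.029 and 0.074, in the same order of lists. The smallest p-values belonged to Lrp6, a Wnt co-receptor, at -1.12 ± 0.28 (limma, adjusted p = 0.223), Cd44 at -1.08 ± 0.34 (adjusted p = 0.310) and Myc, a target gene of the pathway, at -0.99 ± 0.33 (adjusted p = 0.341). Lrp6 was at 4.77, 5.92, 6.35 and 6.04 in FP-high samples, against 6.33, 6.97 and 7.32 as lowest, median and highest in FP-low samples, and only FP-high replicate 3 reached the FP-low range. Apart from FP-high replicate 1 the differences were -0.78 for Lrp6 (adjusted p = 0.300), -0.86 for Cd44 (adjusted p = 0.517) and -0.59 for Myc (adjusted p = 0.521). In the other 3 lists the smallest p belonged to Wnt2, a ligand, at 0.64 ± 0.26, Ppp2ca, a catalytic subunit of the phosphatase PP2A, at -0.99 ± 0.42, and Bcl9, a beta-catenin coactivator, at -0.83 ± 0.32. Without replicate 1 these were 0.32, -0.37 and -0.62, in the same order, and none was called.

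**Figure D4:**
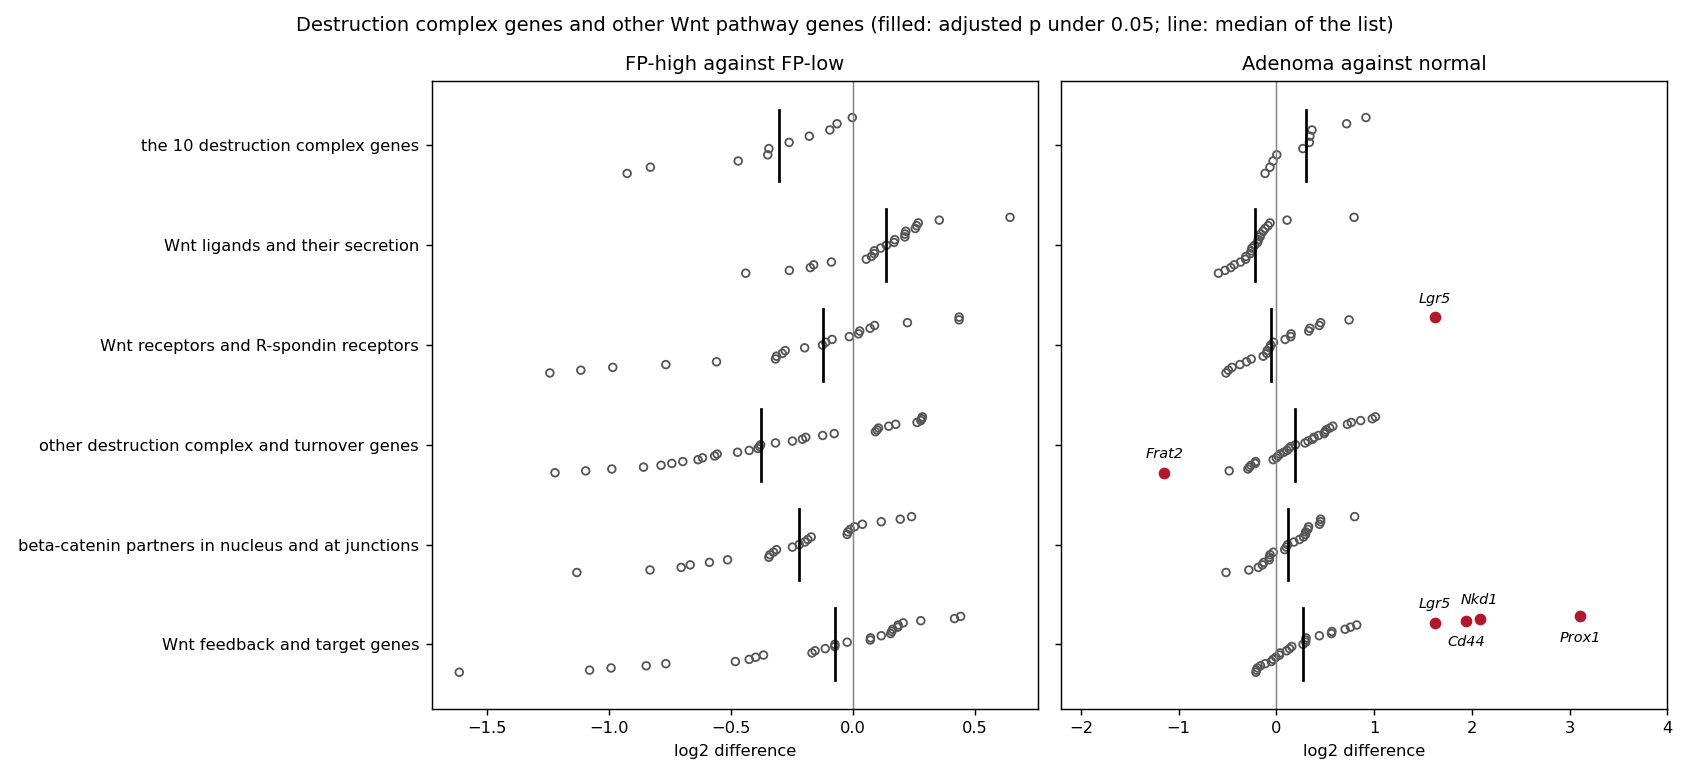
Difference of mean log2 level (horizontal axis) of the 10 genes and of 5 lists of other Wnt pathway genes (rows), for FP-high against FP-low samples (left) and adenomas against normal epithelium (right). Each point is a gene, filled where the adjusted p was under 0.05, and the upright line is the list median. Filled points are Lgr5, Nkd1, Cd44 and Prox1 on the higher side and Frat2 on the lower side in adenomas.

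Over the 12 arrays other than FP-high replicate 1, the 3 probe sets most like Apc of 21788 with 1 symbol were those of Rc3h2, an RNA-binding ubiquitin ligase (Pearson r of log2 levels 0.87), Vmn1r224, a vomeronasal receptor gene (0.85), and Tmprss11e, a serine protease gene (0.83). With all 13 arrays Vmn1r224 and Tmprss11e had 0.20 each and Rc3h2 had 0.89. For Ctnnb1 they were Mtpn (0.91), the methyl-CpG binding protein gene Mbd2 (0.89) and the co-chaperone gene Bag4 (0.88). These are the highest of many correlations over few arrays that share processing, and they are given as a description.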

How the data were processed

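RNA of small intestinal crypts and adenomas was amplified, labelled and hybridised to 1 Affymetrix Mouse Gene 1.0 ST array per sample, per the labels' protocols. The authors deposited a log2 level for each of 35556 probe sets, made with Affymetrix Expression Console and Transcriptome Analysis Console, per the submitters' processing notes. For versions, background correction, normalization and summarisation the sources used here give nothing. Levels can be distorted by amplification from little RNA, and precision is limited by how many arrays there are.

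Gene symbols came from GEO's annotation of the platform, and all 10 genes matched RefSeq (GRCm38.p6) by Entrez identifier. The 23410 probe sets with a symbol were fitted with limma 3.58.1 in R 4.3.3 (lmFit and eBayes, two-sided, 3 group means, no covariate or filter), with Benjamini-Hochberg adjustment over all of them. Normal epithelium is the midpoint of both normal group means. The fit was tested on simulated data with independent noise of the same spread in every array. These lack the narrow scale of FP-high replicate 1, so they do not show how the fit handles that array. Genes and lists were chosen with earlier results of these data known. Of each list every called gene was named, or else 1 to 3 with the smallest p, and Axin2 was added. Exact permutation tests on paired probe sets were added after seeing the data. For arrays of the same replicate number, deviations from the group means were correlated. Adenoma with FP-high samples gave r = 0.233, 0.102 and 0.220, all over 0.1. FP-high with FP-low samples gave -0.361, 0.178, -0.286 and 0.090, and adenoma with FP-low samples -0.116, 0.061 and -0.062. Only adenoma with FP-high samples was over 0.1 in every replicate, and these r are small. That pairing is read from the data, not the labels. Adenoma and FP-high arrays of unlike number were not set beside it, so the check cannot show shared animals. The r of 0.233 is that of FP-high replicate 1, the array with the narrow scale. Alternatives were quantile normalization, array weights, a replicate block, Xist as covariate, other filters and leaving out each array.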

Additional observations from a re-analysis of the deposited data

Results flagged for a closer look

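Of 20 sets of values (10 genes in the FP-high and FP-low groups), 1 held an array far from the rest. The Gsk3b level of FP-high replicate 1 was 4.81, against 6.66 to 7.03 in the other 3 FP-high arrays. Its gap to the nearest array was 0.835 of the group's range, over Dixon's 95% critical value for 4 arrays. Chance gives about 1 such flag in 20 unrelated sets, but these sets share arrays. The same array was also the most extreme of its group in Gsk3a, Ctnnb1, Csnk1a1 and Tcf7l2, each under the critical value. In Apc, Apc2, Axin1, Amer1 and Btrc another FP-high array was.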

How the results depend on the processing

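The count of called destruction complex genes was 0 in each of the 4 comparisons under all alternatives run, with or without any 1 array. The smallest adjusted p of any of the 10 was 0.097 (Ctnnb1, adenomas against normal epithelium, array weights). With 3 adenomas and 4 FP-high arrays, several intervals span more than 1 log2 unit. Signs of differences that were not called turned in these cases, from sizes near 0 up to -0.83 for Csnk1a1 between FP-high and FP-low samples, for which the cause was not tested. For FP-high against FP-low samples, Apc was 0.13 after quantile normalization and 0.0038 with array weights, Gsk3a 0.029 and Amer1 0.040 with array weights, and Btrc 0.0091 after quantile normalization and 0.039 with Xist as a covariate. For adenomas against normal epithelium, Amer1 was -0.049 after quantile normalization, -0.15 with array weights, -0.039 with the replicate block and -0.025 with Xist, and Axin1 was 0.38 with Xist. Against FP-low samples, Xist gave 0.28 for Axin1, 0.054 for Gsk3b and -0.078 for Csnk1a1. Against FP-high samples, quantile normalization gave 0.071 for Apc2, -0.017 for Axin1 and -0.035 for Gsk3a, the replicate block -0.049 for Axin1, and array weights -0.22 for Gsk3a and -0.17 for Amer1. Leaving out 1 array at a time gave, for FP-high against FP-low, ranges of -0.21 to 0.031 (Apc), -0.63 to 0.11 (Gsk3a), -0.77 to 0.037 (Ctnnb1), -1.41 to 0.13 (Csnk1a1), -0.10 to 0.10 (Btrc) and -0.086 to 0.16 (Apc minus Apc2). It gave -0.26 to 0.13 (Gsk3a) and -0.083 to 0.10 (Amer1) for adenomas against normal epithelium, and -0.11 to 0.16 (Axin1), -0.32 to 0.42 (Gsk3a) and -0.081 to 0.28 (Amer1) against FP-high samples. Over all tested probe sets the calls between adenomas and normal epithelium numbered 213, against 1153 with array weights, 488 without FP-high replicate 1, 142 without dim probe sets, 99 and 92 without adenoma replicates 1 and 2, 67 with the replicate block and 25 with Xist. Between FP-high and FP-low samples they numbered 0, against 136 without FP-high replicate 3, 12 and 6 without FP-high replicates 2 and 4, 3 with array weights and 1 after quantile normalization. No other probe set of any of the 10 genes existed to be tried, and a fit of only the groups compared does not apply to adenomas against normal epithelium.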

Other observations

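Among normal arrays the lowest Axin1 levels were those of the arrays high in Xist, a pattern noticed in the data and not tested. Axin1 was at 5.14, 5.11 and 5.09 in the adenomas, at 4.54 in FP-high replicate 4 and at 4.96 in FP-low replicate 6, the 5 arrays with high Xist. In the other 8 arrays it was at 5.13 to 5.54, so that the sets touched only between adenoma replicate 1 and FP-high replicate 1. With the Xist level as a covariate, Axin1 stood 0.38 ± 0.20 higher in adenomas than in normal epithelium (limma, adjusted p = 0.836), against -0.066 without it. Axin1 is autosomal.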
